A study of Mus musculus with 2 samples.

Results

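The 9 genes described here encode the machinery of heme synthesis: the first-step synthases Alas1 and Alas2, the cytosolic enzymes Alad, Uros and Urod, the mitochondrial enzymes Cpox, Ppox and Fech, and Slc25a38, the mitochondrial carrier that supplies glycine to the first step. They were chosen by name as pathway members, 9 of the 32285 genes counted, with no threshold on their levels. Single-cell RNA-seq was run on cells freed from leg bones (femur and tibia) and their marrow in 3 male INK-ATTAC mice, aged 24 months and untreated, whose cells were pooled into 1 sample. In these mice a p16Ink4a promoter fragment drives an inducible caspase, and every cell came from mice carrying that transgene, with no transgene-free, young or drug-treated group here. The cells had been depleted of lineage-positive cells and sorted as lineage-negative and CD45-, so the erythroid cells described are those that passed an enrichment directed at stroma. The counts were deposited as 2 samples titled as replicates, which shared 10928 of 11056 barcodes. They were therefore treated as 2 runs of the same cells, called lanes here, and their counts were summed. This left 9573 cells with at least 200 genes and at most 20% mitochondrial UMIs (unique molecular identifiers, each counting a captured transcript).

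Heme is built from glycine and succinyl-CoA. ALAS makes the first intermediate in the mitochondrion, several cytosolic enzymes assemble and trim the porphyrin ring, and Cpox, Ppox and Fech finish the molecule back in the mitochondrion, where Fech inserts iron. Most cells make heme for cytochromes with the housekeeping synthase Alas1, while red cell precursors, which need heme for hemoglobin, use the X-linked synthase Alas2, known as a target of the erythroid factor GATA1 and under iron control at translation.

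Erythroid cells numbered 6406, in 8 clusters that each had 6 to 10 of the 13 listed erythroid markers by the naming rule, and the members and globins had been left out of the genes used for clustering. Within them the share of UMIs from Hba-a1, Hba-a2, Hbb-bs and Hbb-bt served as a ruler of hemoglobin content, with 1917 cells under 0.5%, 796 from 0.5 to 1%, 1630 from 1 to 2.5%, 1495 from 2.5 to 6% and 568 at 6% or more. Within 10% of each cut value lay 103 cells below and 95 above 0.5%, 133 and 140 around 1%, 215 and 213 around 2.5%, and 107 and 117 around 6%. Hba-a1 and Hba-a2 are near-identical copies, so only their sum with the other globins was used. The comparison classes were 1486 LEPR stromal cells (the leptin receptor-positive mesenchymal cells of the marrow, led by Cxcl12, Adipoq and Kitl), 132 megakaryocytes (led by Pf4 and Ppbp) and 63 endothelial cells. Levels are given as CPM (counts per 1000000 UMIs of the whole group), with a 95% exact Poisson interval in brackets. These 3′ counts do not grow with transcript length. There was 1 biological sample, so no test between groups was possible, and all intervals cover counting error only and not the spread between mice.

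The depth of the groups differed. The median cell held 5261.5 UMIs per lane under 0.5% globin, 5554.25 from 0.5 to 1%, 20813.5 from 1 to 2.5%, 21073 from 2.5 to 6% and 17216 at 6% or more, against 2921.25 in LEPR stromal cells, 4381.75 in megakaryocytes and 1578.5 in endothelial cells. Of the 8 erythroid clusters, 3 were led by Gm26917, Lars2 or mitochondrial genes, and their share of the cells was 53.3% under 0.5% globin, 58.3% from 0.5 to 1%, 36.0% and 21.7% in the following groups and 14.6% at 6% or more. Values without them are given beside the comparison along globin, and their part in the results was not tested beyond that.

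The start regions of the members are shown first for Alas2, Alas1 and Cpox, because Alas2 and Cpox held a GATA match and Alas1 was the only member with an NRF1 match. Each window (RefSeq, GRCm38.p6) runs 5′ to 3′ on the gene's strand from 250 bases before to 50 bases after an annotated transcript start, and capitals mark every match on either strand to 3 motifs. The motif of the GATA factors was searched as AGATAA. The motif of the CACCC box, which GC boxes also fit, was searched as CCNCNCCC. The motif of NRF1 was searched as GCATGCGC. Overlapping matches appear as 1 run of capitals. Windows were at hand for 8 members.
Alas2, chrX:150547167-150547466, plus strand: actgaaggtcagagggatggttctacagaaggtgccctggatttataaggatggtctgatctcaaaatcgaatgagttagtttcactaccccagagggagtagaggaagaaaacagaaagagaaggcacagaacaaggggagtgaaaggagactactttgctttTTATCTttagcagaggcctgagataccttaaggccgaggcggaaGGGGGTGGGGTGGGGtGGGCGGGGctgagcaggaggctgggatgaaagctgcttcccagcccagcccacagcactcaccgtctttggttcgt
Alas1, chr9:106247905-106248204, minus strand: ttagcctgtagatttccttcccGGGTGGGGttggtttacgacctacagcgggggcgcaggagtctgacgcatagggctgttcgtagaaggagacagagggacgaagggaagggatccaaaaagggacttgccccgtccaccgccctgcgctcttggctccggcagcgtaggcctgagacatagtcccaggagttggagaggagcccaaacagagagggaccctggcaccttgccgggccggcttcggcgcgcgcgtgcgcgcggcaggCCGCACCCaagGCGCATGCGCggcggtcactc
Cpox, chr16:58669958-58670257, plus strand: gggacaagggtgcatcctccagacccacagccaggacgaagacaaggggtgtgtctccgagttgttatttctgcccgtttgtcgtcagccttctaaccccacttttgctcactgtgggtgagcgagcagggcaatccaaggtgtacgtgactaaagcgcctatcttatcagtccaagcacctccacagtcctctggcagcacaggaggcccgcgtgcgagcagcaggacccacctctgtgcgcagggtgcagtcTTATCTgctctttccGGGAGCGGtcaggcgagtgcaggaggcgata

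The GATA match of Alas2 starts at -86 from its transcript start, beside 4 matches to the CACCC or GC box, and that of Cpox starts at 5. The 8 members had 11 windows. A GATA match was in 2 of these and in 11.2% of the 32851 windows of all genes. A CACCC or GC box match was in 10 of the 11 and in 49.5% of all windows. The NRF1 match was in both windows of Alas1, in no window of another member, and in 2.71% of all windows. These are matches of letters, chosen for search with the pathway known, and binding was not measured.

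The first enzyme changed its gene along the globin range. Alas2, the erythroid synthase, was at 12.4 CPM (11.1 to 13.9) under 0.5% globin, 35.9 from 0.5 to 1%, 65.5 from 1 to 2.5%, 125 from 2.5 to 6% and 261 (251 to 272) at 6% or more, a 21.0-fold range. No neighbouring pair of intervals overlapped. The lanes gave 261.4 and 261.3 CPM at 6% or more, a match given in advance because they were treated as the same cells. Alas1, the housekeeping synthase, went the other way, from 11.4 CPM (10.1 to 12.9) to 8.80, 7.28, 5.31 and 3.30 (2.25 to 4.67), a 3.47-fold fall. Its neighbouring intervals overlapped at 3 of the 4 steps, so its order is carried by the ends of the range.

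Alas2 therefore made up 52.0% (47.9 to 56.2, Clopper-Pearson) of all ALAS UMIs in the least hemoglobinized erythroid cells and 80.3%, 89.99%, 95.9% and 98.8% (98.2 to 99.1) in the following groups. Under 0.5% globin the leading synthase turned with depth: Alas2 and Alas1 had 29 and 7.5 UMIs per lane in cells under 5000 UMIs (both lanes summed), 95.5 and 42 in cells of 5000 to 20000, and 175.5 and 227 in cells over 20000. The summed ALAS level grew from 23.9 to 265 CPM. Cells with UMIs of both genes were present in every group: of the 1917 cells under 0.5% globin, 73 had both, 241 had only Alas1 and 288 had only Alas2, and of the 568 cells at 6% or more, 43 had both, 2 had only Alas1 and 503 had only Alas2. When the erythroid cells were split into 20 bins of equal size, the first bin, with a median globin share of 0.0478%, had Alas2 at 1.90 CPM and Alas1 at 13.2 CPM, so that Alas2 was 12.6% of ALAS UMIs. The last bin, at 9.91% globin, had Alas2 at 320 CPM and Alas1 at 3.54 CPM. The first bin held 11 Alas2 UMIs per lane, and its level was below the 6.91 CPM of LEPR stromal cells, so no fold is given over it. The share passed from below to above that of Alas1 between the bins with medians of 0.162% (48.8%) and 0.239% (66.1%) globin.

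**Figure D1:**
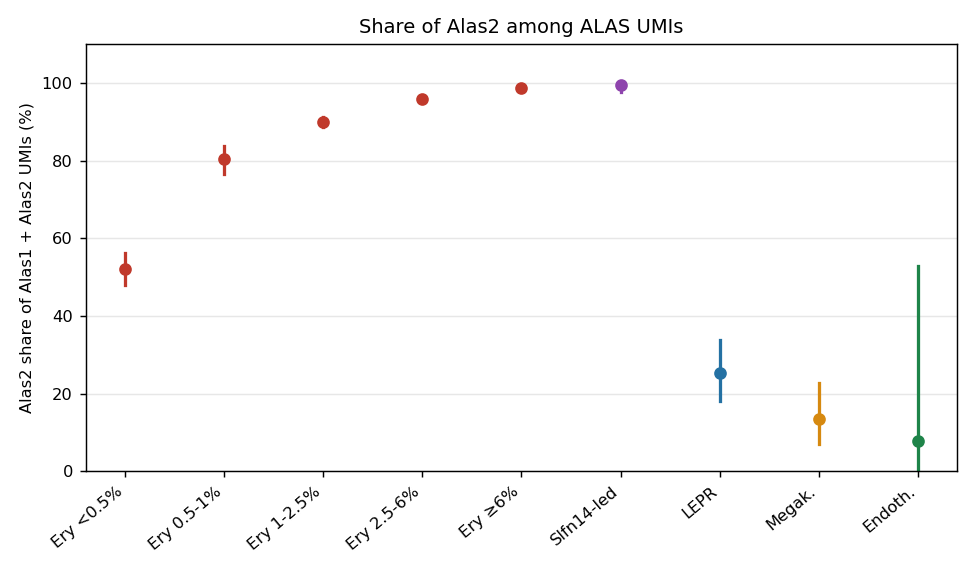
Share of Alas2 among Alas1 plus Alas2 UMIs (%, y axis) in the 5 erythroid globin groups (red), the unnamed Slfn14-led cluster (purple), LEPR stromal cells (blue), megakaryocytes (orange) and endothelial cells (green), with exact 95% binomial intervals as bars. The share climbs from 52.0% to 98.8% in erythroid cells and is 25.4% or less in the other 3 classes shown, over cells of all depths.

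Slc25a38, the glycine carrier that feeds ALAS, moved little by comparison. It was at 74.2 CPM (70.8 to 77.7) under 0.5% globin, 88.5, 100.4 and 104 in the middle groups, and 108 (102 to 115) at 6% or more, a 1.46-fold rise. Its intervals overlapped between the last 3 groups, and in the 20 bins 12 others overlapped the highest.

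The cytosolic enzymes were all higher with more globin, by similar factors over cells of all depths. Alad, which joins ALA molecules into porphobilinogen, was at 299 CPM (292 to 306) under 0.5% globin and then at 395, 464, 541 and 630 (615 to 646), a 2.11-fold rise. Uros, which closes the porphyrin ring in its natural isomer, rose from 73.8 CPM (70.4 to 77.3) through 107, 120 and 135 to 157 (149 to 165), which is 2.13-fold. Urod, which trims the side chains of uroporphyrinogen, rose from 180 CPM (175 to 186) through 237, 277 and 335 to 396 (383 to 408), which is 2.19-fold. None of these 3 genes had overlapping intervals between neighbouring groups. In cells of 5000 to 20000 UMIs (both lanes summed) the factors differed, with Uros at 102 and 125 CPM at the ends of the range, Alad at 335 and 546 CPM and Urod at 177 and 346 CPM. In cells over 20000 UMIs Uros was at 68.2 and 160 CPM, Alad at 295 and 638 CPM and Urod at 183 and 401 CPM.

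Of the mitochondrial enzymes, Cpox was the most abundant member on the UMI scale and Fech rose the most. Cpox, which oxidizes coproporphyrinogen, was at 513 CPM (504 to 522), 669, 771, 891 and 994 (974 to 1014), a 1.94-fold rise. Ppox, the following oxidase, was at 75.3 CPM (71.9 to 78.8), 95.8, 103, 119 and 152 (144 to 160), a 2.02-fold rise, with overlapping intervals between 0.5 to 1% and 1 to 2.5% globin. Fech, the ferrochelatase, was at 129 CPM (124 to 133), 196, 225, 276 and 333 (321 to 345), a 2.58-fold rise. Over cells of all depths the order of the 5 groups followed globin in all 9 genes, upward for 8 and downward for Alas1. In cells of 5000 to 20000 UMIs (both lanes summed) only Alas2 and Cpox kept that full order. Ppox, for example, was at 127, 184, 183, 201 and 173 CPM and Slc25a38 at 79.9, 97.3, 99.9, 101 and 91.1 CPM. In cells over 20000 UMIs all 9 genes kept it, with Ppox at 63.2, 80.7, 95.4, 114 and 150 CPM. Slc25a38 was at 72.4, 86.4, 100.3, 104.0 and 110 CPM in them. Of the 2064 erythroid cells of 5000 to 20000 UMIs, 409 lay outside the clusters led by Gm26917, Lars2 or mitochondrial genes. Of the 3572 cells over 20000 UMIs, 3485 did. Over the 5 groups the globins that define them went from 0.198% to 9.10% of UMIs.

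**Figure D2:**
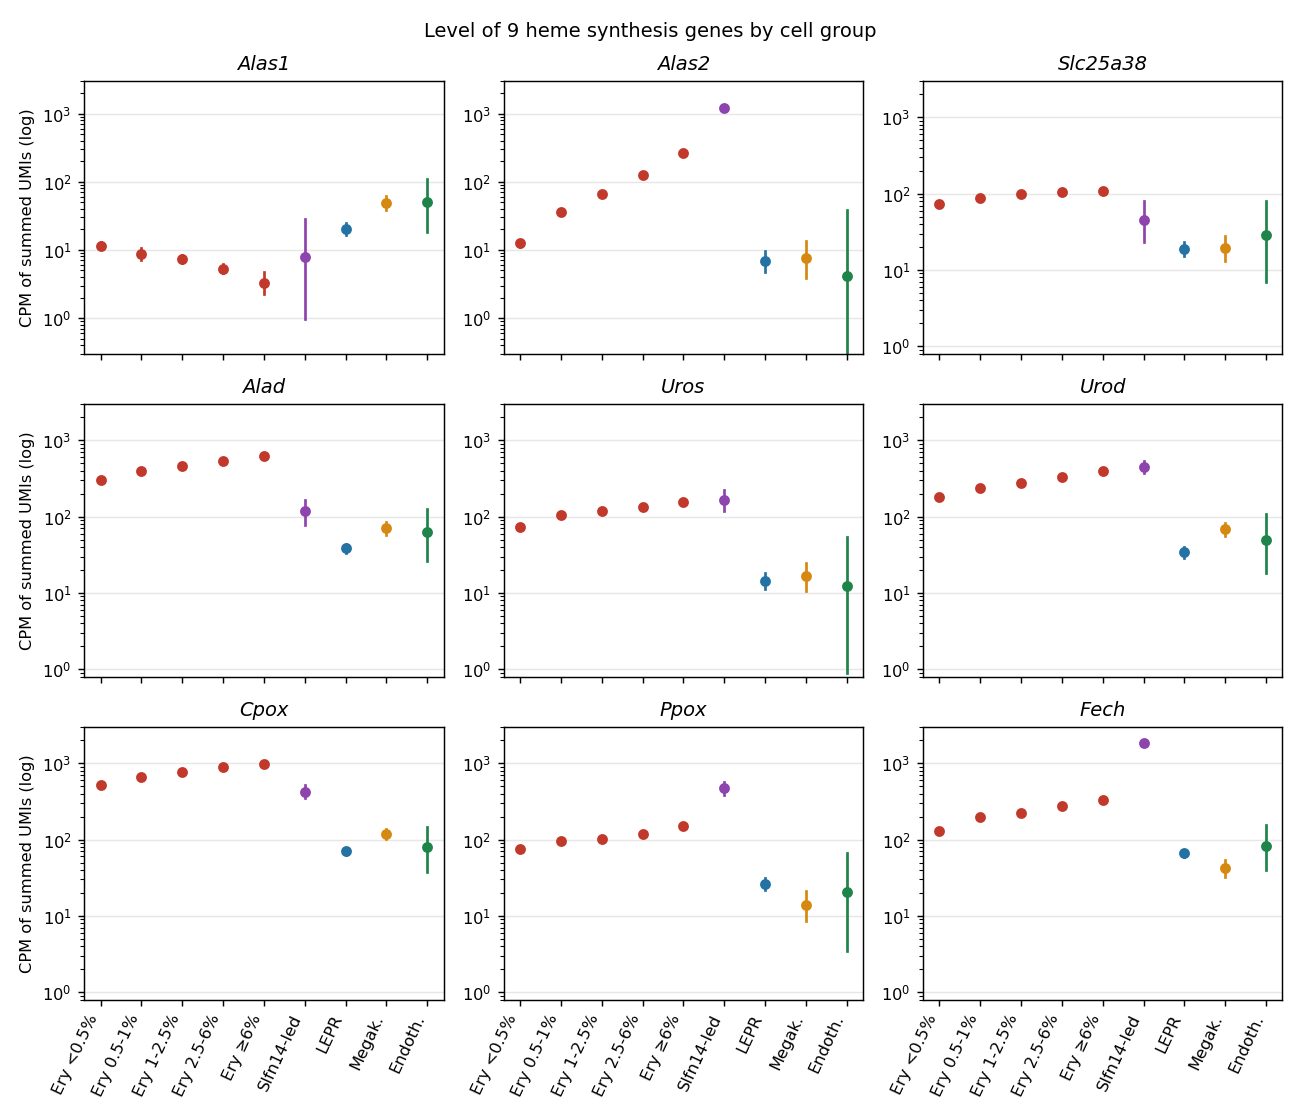
CPM on a log axis for each of the 9 genes in the 5 erythroid globin groups (red), the unnamed Slfn14-led cluster (purple), LEPR stromal cells (blue), megakaryocytes (orange) and endothelial cells (green), with exact 95% Poisson intervals as bars. The y axes of Alas1 and Alas2 start at 0.3 CPM, where bars that reach lower are cut, and those of the other 7 genes start at 0.8 CPM; over these cells of all depths only Alas1 falls across the erythroid groups.

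**Figure D3:**
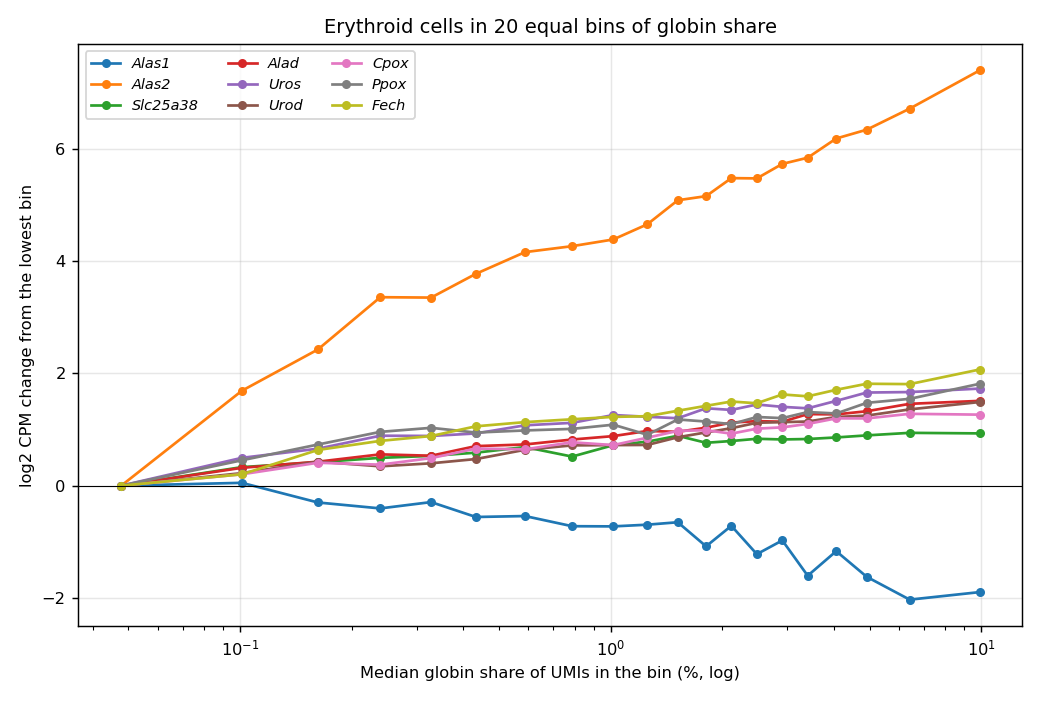
log2 change in CPM of each gene from the lowest of 20 equal bins of erythroid cells, against the median globin share of the bin (%, log axis). Alas2 leaves the other genes in the lowest bins, from a first bin of 1.90 CPM that lies below its LEPR stromal level, Fech ends 4.20-fold up and Alas1 ends below its start.

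Set against all genes, 6 of the 9 members (Alas2, Alad, Uros, Urod, Ppox and Fech) were at least 2-fold higher at 6% or more than under 0.5% globin, where 3.72% of the 9482 genes with at least 50 UMIs were. At least 2-fold lower was 1 member, Alas1, against 28.0% of genes. The median log2 ratio was 1.07 over the members and -0.51 over all genes, so that relative to the median gene Slc25a38 was at 1.06 and Cpox at 1.46. Ppox and Cpox sat just inside and just outside the 2-fold line (log2 1.01 and 0.95). In cells of 5000 to 20000 UMIs (both lanes summed), 3 members passed it, Alas2 (4.03), Fech (1.28) and Cpox (1.06), while Uros fell to 0.29 and Ppox to 0.45. That window held 797 of the cells under 0.5% globin and 140 of those at 6% or more. Over 20000 UMIs these groups had 684 and 416 cells, with Uros at 68.2 and 160 CPM and Ppox at 63.2 and 150 CPM. Without the clusters led by Gm26917, Lars2 or mitochondrial genes, Alas2 was at 4.93, Fech at 1.49, Ppox at 1.30, Uros at 1.23, Cpox at 0.90 and Alas1 at -1.86, and 6 members again passed the line. Between 2.5 to 6% and 6% or more, Alas2 alone was at least 2-fold higher, against 0.176% of all genes, and no member was at least 2-fold lower, against 2.60%.

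The erythroid clusters, formed without the members, differed in the synthases as well. The cluster with the lowest median globin share (0.109%, 526 cells, led by Prelid2 and Cmtm7) had Alas1 at 9.62 CPM and Alas2 at 8.78 CPM, and Fech at 75.3 CPM. In the cluster led by C2cd4a and Nefh (987 cells, 0.570% globin) Alas2 was at 28.0 CPM and Cpox already at 693 CPM. Alas2 did not follow globin alone across clusters: the Gm26917-led clusters at 0.435% and 0.719% globin had it at 113 and 108 CPM, above the 103 CPM of a cluster at 2.69% globin. The cluster led by Plek2, Erfe, Cish and Pim1 (618 cells, 3.03% globin), whose leading genes include the erythroid iron hormone Erfe, had the highest Cpox of the 8 clusters, at 1025 CPM, above the 821 CPM of the cluster of 893 cells with more globin (4.10%). Slc25a38 was lower there, at 85.7 against 107 CPM. Ppox was highest in a Gm26917-led cluster (661 cells, 0.435% globin), at 230 CPM, and Fech was at 367 CPM in it, so these genes did not follow globin alone across clusters.

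With cells thinned to 2000 UMIs each, which evens the UMIs counted per cell, cells with an Alas2 UMI were 5.08% (4.13 to 6.17) under 0.5% globin and 38.2% (34.1 to 42.3) at 6% or more. The mix of deep and shallow cells still differed between the groups. Under 0.5% globin Alas2 was at 38.6 CPM in cells under 5000 UMIs (both lanes summed), 24.9 in those of 5000 to 20000 and 8.97 in those over 20000. Before thinning they were 18.8% and 96.1%. In thinned LEPR stromal cells, a class that should lack the erythroid synthase, the share was 1.62% (1.04 to 2.39). The shares of both erythroid groups lay above that background. In the first 2 of the 20 bins, however, the Alas2 level was 1.90 and 6.12 CPM, not above the 6.91 CPM of LEPR stromal cells. Alas1 went from 1.71% (1.17 to 2.41) to 0.353% (0.0428 to 1.27) after thinning. Cpox was detected in 51.2% and 78.6% of thinned cells and Fech in 22.4% and 49.6%. In these groups 47 and 2 cells were too shallow and were left out.

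The genes around the pathway did not rise as a block. Of 14 partner genes around the mitochondrial steps, 6 were at least 2-fold higher at 6% or more than under 0.5% globin. A further 3 were at least 2-fold lower, where all genes gave 3.72% higher and 28.0% lower. The median log2 ratio of the list was 0.37. The plasma membrane glycine transporter Slc6a9 went from 4.16 to 38.2 CPM (9.19-fold), and mitoferrin 1, Slc25a37, which brings iron to Fech, from 109 to 626 CPM (5.75-fold). Fam210b (3.60-fold), the transporter Abcb10 (2.49-fold), the porphyrin transport protein Tmem14c (2.20-fold) and Slc25a39 (2.08-fold) also passed the line. At least 2-fold lower were the succinyl-CoA ligase subunits Suclg2 (5.30-fold) and Suclg1 (2.61-fold), and Pgrmc1 (2.51-fold). Relative to the median gene, Suclg1 was at -0.88 and Pgrmc1 at -0.82.

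Of 12 iron-sulfur cluster genes none was at least 2-fold higher and 4 were at least 2-fold lower (Fdx1, Fdxr, Hspa9 and Fdx2), against 3.72% of all genes higher and 28.0% lower, and the median of the list, -0.51, was that of all genes. Glrx5, the glutaredoxin that hands on clusters, was at 660 and 1203 CPM (1.82-fold). Among the 5 measured genes of heme export and breakdown, Blvrb rose 2.05-fold, from 1397 to 2859 CPM, and the heme exporter Flvcr1 was 5.79-fold lower, while Hmox1 and Flvcr2 had too few UMIs to be counted. Among 12 measured regulators, Nfe2 was 2.55-fold higher, Gata2 was 10.7-fold lower and Aco1 was 2.22-fold lower. Eif2ak1, the heme-regulated kinase, was at 62.5 and 121 CPM (1.93-fold) and Gata1 at 93.4 and 113 CPM. Of 8 genes that use heme for cytochromes and related proteins, none was at least 2-fold higher, and Cox10 and Cyba were at least 2-fold lower, against the same shares of all genes.

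**Figure D4:**
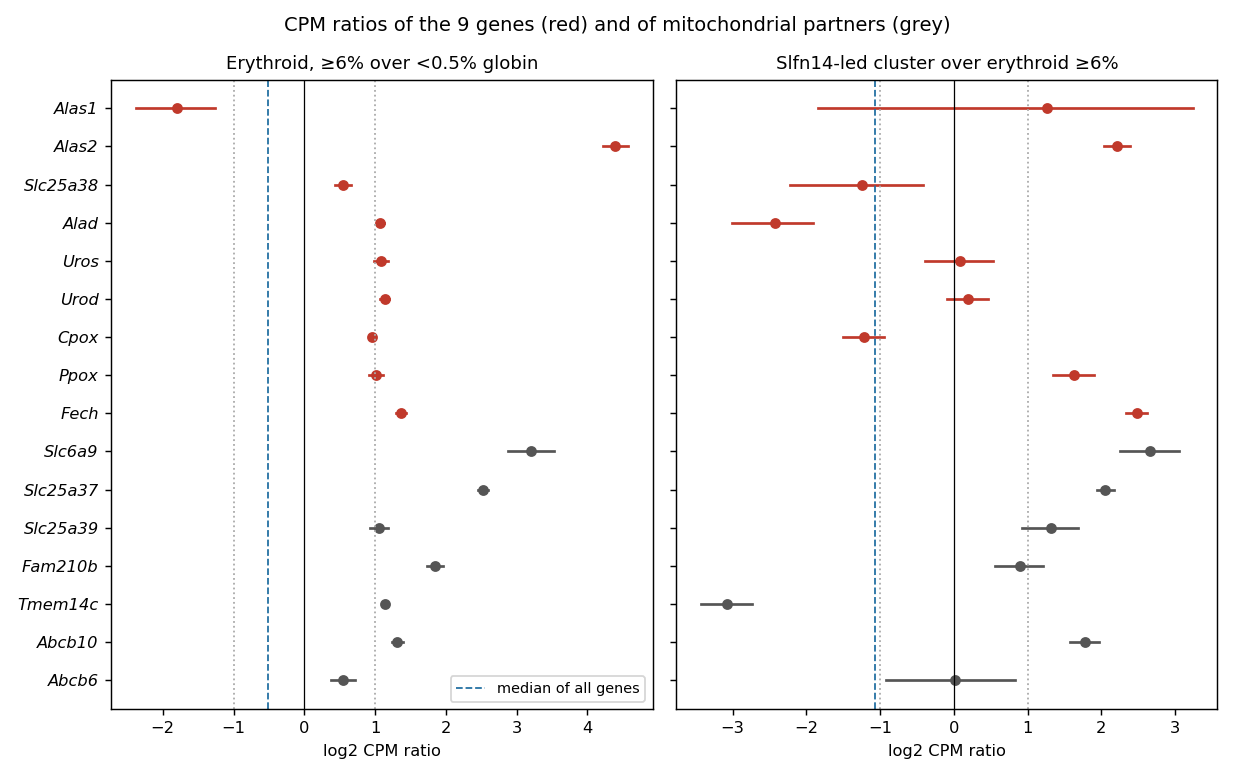
log2 CPM ratios of the 9 members (red) and 7 of the 14 partner genes (grey) with exact 95% intervals, for erythroid cells at 6% globin or more over those under 0.5% (left) and for the Slfn14-led cluster over erythroid cells at 6% or more (right). The 7 were picked: they are the 6 partners at least 2-fold higher on the left, and Abcb6. The 3 partners at least 2-fold lower on the left (Pgrmc1, Suclg1 and Suclg2) are not drawn. The dashed line is the median of all genes (-0.51 left, -1.07 right) and dotted lines mark 2-fold; Alad, Cpox, Slc25a38 and Tmem14c turn from higher on the left to lower on the right, over cells of all depths.

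A further cluster of 249 cells, led by Slfn14, Xpo7 and Tmcc2, carried more globin than any other, 17.9% of its UMIs, but was shallow, with a median of 820 UMIs per lane. Its depth was far below that of the median cell and none of the erythroid markers was among its 10 leading genes, so by the naming rule it was left unnamed and out of the erythroid groups. Against erythroid cells at 6% or more, Fech was at 1855 CPM (1691 to 2031) and 5.57-fold higher, Alas2 at 1210 CPM (1078 to 1354) and 4.63-fold higher, and Ppox at 470 CPM (389 to 563) and 3.10-fold higher. These 3 of the 8 members with enough UMIs stand beside 12.8% of all genes at least 2-fold higher. In the other direction were Alad at 117 CPM (78.7 to 168) and 5.38-fold lower, Slc25a38 at 45.6 CPM and 2.37-fold lower, and Cpox at 427 CPM and 2.33-fold lower, beside 51.8% of all genes. The median gene was at -1.07 on the log2 scale, and relative to it Cpox (-0.15) and Slc25a38 (-0.18) lay close to the median while Alad (-1.36) lay below. Uros at 167 CPM and Urod at 450 CPM had intervals of the ratio that included 0. Alas1 had 2 UMIs in each lane, all in 1 cell, and Alas2 was 99.3% of ALAS UMIs. In cells of 5000 to 20000 UMIs (10 cells here and 140 erythroid cells at 6% or more), Fech was at 1034 against 410 CPM, Alas2 at 1012 against 408 CPM and Alad at 220 against 546 CPM. At that depth Ppox (198 against 173 CPM), Cpox (561 against 745 CPM) and Slc25a38 (88.0 against 91.1 CPM) were within 2-fold. Under 5000 UMIs, where only 12 erythroid cells at 6% or more lay, Alas2 was at 1254 against 827 CPM, also within 2-fold, and Fech at 2036 against 718 CPM. Beyond 2-fold at that depth were Ppox (530 against 239 CPM), Cpox (397 against 892 CPM), Slc25a38 (36.3 against 87.1 CPM) and Alad (94.4 against 609 CPM).

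The partners split in this cluster as well. Slc6a9 (6.33-fold), Slc25a37 (4.15-fold), Abcb10 (3.43-fold) and Slc25a39 (2.49-fold) were higher than in erythroid cells at 6% or more, whereas Tmem14c, which rose with the members before, was 8.40-fold lower. Eif2ak1 was at 1167 CPM (9.68-fold higher), Nfe2 at 639 CPM (10.9-fold higher) and Bach1, the heme-sensing repressor, at 228 CPM (8.96-fold higher). Klf1 was at 127 CPM against 352 CPM and Gata1 at 35.7 against 113 CPM. The cluster summed to 251982 UMIs per lane, and its lower depth moved with these values.

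In the stroma the order of the synthases was the other way round. In LEPR stromal cells Alas1 was at 20.3 CPM (16.5 to 24.8) and Alas2 at 6.91 CPM (4.76 to 9.71), so that Alas2 was 25.4% (18.2 to 33.8) of ALAS UMIs. Over all erythroid cells 8 members were at least 2-fold higher than in LEPR stromal cells, against 20.0% of 12340 genes, and Alas1 alone was at least 2-fold lower (2.72-fold), against 44.4%. The median log2 ratio was 3.01 over the members and -0.71 over all genes. The largest ratios were those of Alas2 (12.3-fold), Alad (11.8-fold) and Cpox (10.8-fold), then Urod (8.18-fold), Uros (8.04-fold), Slc25a38 (5.00-fold) and Ppox (3.99-fold). Fech, at 65.9 CPM (58.8 to 73.6) in LEPR stromal cells, had the smallest ratio of the 8 (3.40-fold). In cells of 5000 to 20000 UMIs the log2 ratio of Alas2 went from 3.62 to 4.56, that of Cpox from 3.43 to 2.87 and that of Ppox from 1.99 to 2.62. The order of Alas2 and Alad was not stable, with log2 ratios of 3.48 and 3.56 in lane 2 alone and 3.58 and 3.59 at a mitochondrial limit of 10%. Hmox1, the inducible enzyme of heme breakdown, was at 28.1 CPM in LEPR stromal cells and 0.0431 CPM in erythroid cells.

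Erythroid transcripts were present in every class. LEPR stromal cells showed all 13 erythroid markers, at 301 CPM in sum against 4460 CPM in erythroid cells, and 0.154% globin. A panel of 10 erythroid genes (among them Klf1, Rhag, Epor, Slc4a1 and Kel) gave the level each member would have in LEPR stromal cells if it stood to the panel as in erythroid cells. For Alas2 that level was 83.7% of the UMIs measured, for Alad 80.8%, for Cpox 73.5%, for Urod 55.8% and for Uros 54.9%. For Slc25a38 it was 34.1%, for Ppox 27.2%, for Fech 23.2% and for Alas1 2.51%. With globins in place of the panel the shares were 74.7% for Alas2, 72.2% for Alad, 20.7% for Fech and 2.24% for Alas1. The part of erythroid RNA in the stromal levels was not tested further. These levels depend on which erythroid cells set the ratio: erythroid cells had 23359.5 Fech UMIs per lane to 401970 panel UMIs, and the Slfn14-led cluster had 467.5 to 2428.

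**Figure D5:**
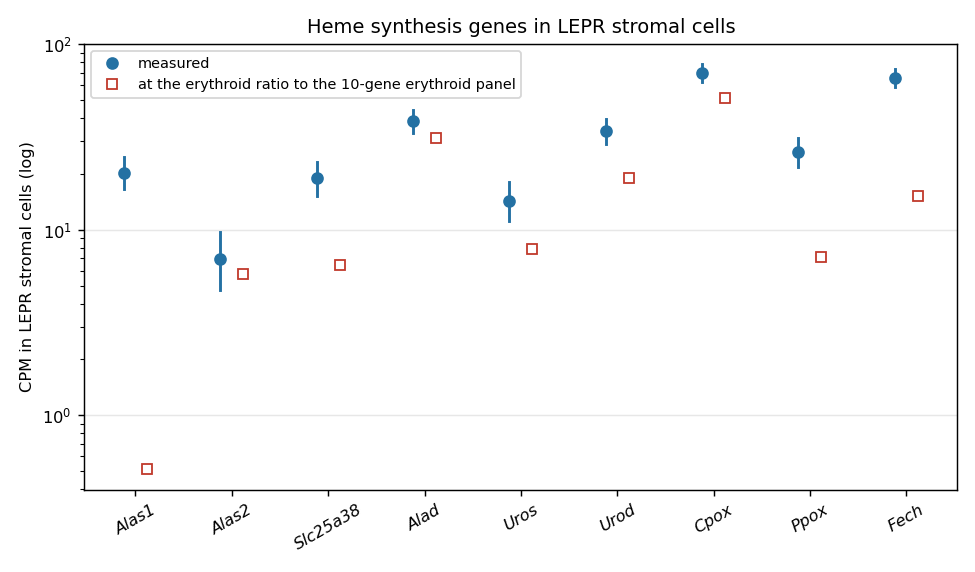
Measured CPM of the 9 genes in LEPR stromal cells (blue, with exact 95% Poisson intervals) and the CPM they would have at the erythroid ratio to the 10-gene erythroid panel (red squares), on a log axis. Alas2 lies nearest to its square, with 83.7% of its UMIs at that ratio, and Alas1 farthest, with 2.51%.

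Megakaryocytes, the platelet precursors that share a progenitor with red cells, had Alas1 at 48.4 CPM (38.0 to 60.8) and Alas2 at 7.57 CPM (3.85 to 13.4), which made Alas2 13.5% (7.07 to 22.7) of ALAS UMIs. This share was set by the 30 deepest cells, with 70 of the 73.5 Alas1 UMIs, while the 60 cells of 5000 to 20000 UMIs (both lanes summed) had 3.5 Alas1 and 3 Alas2 UMIs. At least 2-fold higher than in LEPR stromal cells were 2 of the 8 members with enough UMIs, Alas1 (log2 ratio 1.25) and Urod (1.01), against 17.7% of all genes, and none was at least 2-fold lower, against 38.6%. The Alas1 difference rested on few cells: 24 cells had a UMI, 5 of them held 66.7% of the UMIs, and the 30 cells over 20000 UMIs (both lanes summed) had 61.2 CPM against 10.9 CPM in the 60 cells of 5000 to 20000. The ratio turned to -0.80 in cells of 5000 to 20000 UMIs and to -0.19 with the mean of each cell's CPM, and Urod passed the line in lane 1 but not in lane 2, where its ratio was 0.86. Fech at 41.8 CPM (32.2 to 53.5) and Ppox at 13.8 CPM (8.56 to 21.1) were below their LEPR stromal levels. Ppox passed the 2-fold line downward in lane 2, at 13.0 against 26.6 CPM. It also did so in cells of 5000 to 20000 UMIs, at 6.22 CPM from 2 UMIs per lane against 26.7 CPM. Megakaryocytes showed all 13 erythroid markers, at 604 CPM in sum, and the panel ratio gave 135% of the Alas2 UMIs, 91.3% of the Ppox UMIs, 77.8% of the Alad UMIs and 1.86% of the Alas1 UMIs measured.

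Endothelial cells were too few to order against the stroma. Alas1 was at 49.96 CPM (18.3 to 109) from 6 UMIs per lane on average, the only member at least 2-fold higher than in LEPR stromal cells, against 9.40% of all genes, and none was at least 2-fold lower, against 30.7%. For each of the 8 members with enough UMIs the interval of the ratio included 0, so no difference was detectable at this depth. Alas2 had 1 UMI in a single lane. Fech was at 83.3 CPM (39.9 to 153), Cpox at 79.1, Alad at 62.5 and Urod at 49.96 CPM. The panel ratio gave 126% of the Cpox UMIs measured, 122% of Uros, 96.2% of Alad, 73.3% of Urod and 35.4% of Fech.

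The smaller classes held few UMIs of either synthase. In 142 fibroblasts Alas1 was at 19.1 CPM and Alas2 at 20.9 CPM, with erythroid markers at 913 CPM in sum, and the panel ratio gave 84.8% of the Alas2 and 8.21% of the Alas1 UMIs. Of the 17 Alas2 UMIs, 16.5 were in the 11 cells over 20000 UMIs (65.5 CPM, with Alas1 at 3.97 CPM), while the 109 cells of 5000 to 20000 had Alas1 at 26.9 CPM and Alas2 at 0.961 CPM. In 45 plasma cells Alas1 was at 3.50 CPM, from 2.5 UMIs per lane, and Alas2 at 13.3 CPM, and Fech at 20.3 CPM, the lowest Fech level of the named classes. There the panel ratio gave 106% of the Alas2 UMIs and 183% of the Fech UMIs measured.

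Over the 5 erythroid groups and 5 other named classes (10 groups, log2 of CPM + 1, all from 1 library), the members other than Alas1 varied alike. Pearson's r was 0.990 between Urod and Cpox and 0.989 between Alad and Urod, but 0.770 between Alas2 and Fech, and Alas1 had negative values with all 8, from -0.76 with Alas2 to -0.38 with Fech. The groups were set by globin and cell class, and r over all pairs of genes is not given as a background. These values therefore do not set the members apart from other erythroid genes. Among 10399 genes, those most like Alas2 were Fn3k (0.985), Acp5 (0.983) and Hbq1b (0.974), and those most like Alad were Ctse (0.996), Blvrb (0.996) and Car2 (0.994). Cpox was followed most closely by Tspan33 (0.998), Prdx2 and Blvrb, Urod by Hemgn and Prdx2, Fech by Scoc (0.988), Pigq and Abcb10, and Ppox by Hebp1 (0.990), Oas3 and Donson. Nearest to Uros were Mtfr1 (0.994) and Il1rl1, to Slc25a38 Scrn3 (0.995), Kel and Ank1, and to Alas1 Snapc5 (0.990), Card19 and Exoc7.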

How the data were processed

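Single-cell RNA-seq counts of 1 pooled sample of 3 mice were used. The authors used Cell Ranger with mm10 to turn reads into a matrix for each deposited replicate, called a lane here. The deposited values are unnormalized UMI counts. The header of the deposited counts names software version 3.0.2 and the methods name another version. The lanes held 116827845 and 120556381 UMIs and shared 10928 of 11056 barcodes, with squared differences 0.559 of the summed counts, so they were treated as the same cells and their counts summed per barcode. Cells were clustered with Seurat 5.3.0 and sctransform 0.4.2 in R 4.3.3 (3000 variable genes without heme genes and globins, 30 principal components, resolution 0.8). Sums, intervals and Scrublet scores (186 doublets called and kept) were computed with scipy 1.17.1 and scanpy 1.11.5 under Python 3.11.15.

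A cluster was named for the marker list most fully detected in it, if at least 3 markers were detected. It stayed unnamed if its median UMI count was under 1/3 of that of all cells and none of the list was among its 10 leading genes. That clustering named no endothelial cluster, so after seeing the data the endothelial cells were taken from the planned clustering of log-normalized counts; 46 of the 63 had been in the fibroblast cluster. The members and lists were chosen with earlier results of these data known. Genes named beside a member were the up to 3 with the highest Pearson r; some genes are not reported here. Intervals (95%, exact Poisson, Clopper-Pearson or conditional binomial) use the mean of the lanes. With 1 sample, a gene was counted as differing by a 2-fold ratio, with at least 50 UMIs over both groups. A simulation drew Poisson counts from 1 pooled profile of erythroid and LEPR stromal cells (8079 genes, 200 changed 2-fold), with no spread between cells. In it the interval of the ratio lay above 0 for 99.5% of changed genes and off 0 for 4.57% of the others. These rates follow from that setting and do not cover spread between cells or mice. The genome positions are those of RefSeq windows on GRCm38.p6.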

Additional observations from a re-analysis of the deposited data

How the results depend on the processing

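No paired analysis was possible because the deposited replicates were treated as lanes of the same cells of 1 biological sample, and nothing was compared across them. Values with 1 lane come from the same cells, so a match between lanes was given by the design and is no check of the results. Of 16 alternatives, 15 were planned; leaving out the clusters led by Gm26917, Lars2 or mitochondrial genes was chosen after seeing the data. The count of members at least 2-fold higher at 6% globin or more than under 0.5% was 6, and 5 to 6 with 1 lane; it was 3 in cells of 5000 to 20000 UMIs. With no minimum of UMIs, 8.20% of genes with UMIs in both groups were 2-fold higher. Median-of-ratios scaling moved the median of all genes in this comparison from -0.51 to 0.02 and raised the count of members to 8. Leaving globins out of the CPM total gave 7, and the mean of each cell's CPM gave 5. No member was 2-fold lower between 2.5 to 6% and 6% or more, and 8 were higher in erythroid than in LEPR stromal cells, with either lane alone (0 to 0 and 8 to 8). For megakaryocytes against LEPR stromal cells the count of members higher was 2, and 1 to 2 with 1 lane. It was 1 with heme genes and globins kept, with resolution 0.4, with resolution 1.2 and with the mean of each cell's CPM. It was 4 with log-normalized clustering and with median-of-ratios scaling, and 0 in cells of 5000 to 20000 UMIs. In this comparison Ppox was at least 2-fold lower in lane 2 and in cells of 5000 to 20000 UMIs. The ratio of Alas1 there was 1.25, and was -0.19 with the mean of each cell's CPM and -0.80 in cells of 5000 to 20000 UMIs. For endothelial cells the count was 1 with either lane, 4 with resolution 1.2 and 2 in cells of 5000 to 20000 UMIs; no endothelial cluster was named at resolution 0.4 or with heme genes and globins kept, so these gave no value. Alas2 was 98.8% of ALAS UMIs at 6% globin or more, 98.7% to 98.8% with 1 lane and 99.4% in cells of 5000 to 20000 UMIs. The causes were not tested. Low depth per cell limits the endothelial and Slfn14-led values, and the number of cells (45) limits those of plasma cells.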
